A study of Mus musculus with 6 samples.

Results

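Muscle stem cells, also called satellite cells (MuSCs), are recognised and sorted by proteins on their surface, and 7 genes for such proteins are described here: Cd34, Vcam1, Cxcr4, Calcr, Ncam1, Cd82 and Cd9. They were taken by gene symbol, and each had 1 of the 18943 gene entries of the expression table. Of the 7, 6 passed the filter on low values (a mean of at least 5 over the 6 libraries), and Calcr did not. In cells cultured with endothelin-3 (ET-3) or neurotensin (NT), Cd34 and Vcam1 were higher than in the DMSO controls, Ncam1 and Cd82 were lower, and Cxcr4 and Cd9 did not pass the test of either comparison.

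All libraries came from MuSCs of wild-type C57BL/6 mice aged 8 weeks, purified by fluorescence-activated cell sorting (FACS) and cultured for 5 days. The controls received DMSO, the solvent, and the treated cells 100 nM ET-3 or 100 nM NT according to the sample labels, while the methods of the study give higher doses. Both peptides act on G protein-coupled receptors, ET-3 on ETB and NT on NTS2, and the study asked whether they keep cultured MuSCs close to quiescence. The data are bulk RNA-seq values with 2 libraries per group. The study's design names triplicates, the sort gate of these samples is not given in the sources used here, and the study speaks of biological samples without giving which animals or cultures the libraries came from, so p-values measure the spread between these libraries, which may be technical.

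A resting satellite cell lies between the muscle fibre and its basal lamina and is held there by adhesion proteins. CD34 is a heavily glycosylated sialomucin that is found on resting satellite cells and also on endothelial and blood progenitor cells. VCAM1 and NCAM1 are adhesion proteins of the immunoglobulin superfamily. VCAM1 binds integrins that contain the alpha 4 or alpha 9 chain, and is used to sort satellite cells, and NCAM1 binds to itself on neighbouring cells and is found on activated satellite cells, myoblasts and newly formed muscle fibres. CXCR4, the receptor of the chemokine CXCL12, and CALCR, the calcitonin receptor and a marker of quiescence in adult satellite cells, are G protein-coupled receptors. CD82 and CD9 are tetraspanins, small proteins that cross the membrane repeatedly and gather integrins and immunoglobulin superfamily partners into patches, and CD9 takes part in the fusion of myoblasts.

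The annotation in the table listed all 7 genes under the plasma membrane, a term held by 23.0% of the 11586 genes with GO terms. Cd34, Vcam1, Cxcr4, Ncam1 and Cd9 also carried the terms cell surface (4.04% of those genes), external side of plasma membrane (1.34%) and cell adhesion (8.82%). The KEGG pathway of cell adhesion molecules, which covers 1.71% of the 5140 genes with a KEGG term, named Cd34, Vcam1 and Ncam1. All 7 are protein coding. Their positions on the mouse build GRCm38 (mm10) are chr1:194938819-194961279 on the plus strand for Cd34 (ENSMUSG00000016494), and, on the minus strand, chr3:116109949-116129688 for Vcam1 (ENSMUSG00000027962), chr1:128588199-128592293 for Cxcr4 (ENSMUSG00000045382), chr6:3685680-3764714 for Calcr (ENSMUSG00000023964), chr9:49502136-49798925 for Ncam1 (ENSMUSG00000039542), chr2:93419111-93463140 for Cd82 (ENSMUSG00000027215) and chr6:125460266-125494791 for Cd9 (ENSMUSG00000030342). The values are summed over the exons of a gene, untranslated regions included, so they do not separate its transcripts.

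From the whole numbers that occur in it, the values of the deposited table were taken to be read counts scaled by 1 factor per library and rounded. They summed to between 4214458 and 4600575 per library, the fitted factors lay between 0.7808 and 1.1912, and the reads on genes were between 3629866 and 5397615. The ET-3 pair and the NT pair were separated by no more than the noise of read sampling (mean chi-square per gene 0.883 and 0.929, where repeated sampling of the same RNA gives about 1), and the DMSO pair by more (1.453). Each library was kept as 1 sample, and results that change when a treated pair is averaged into 1 sample are given with that value too. Such averaging leaves 1 sample in each treated group, and fewer of all genes tested then passed the test. Known genes of the lineage were checked first. Pax7, the transcription factor that defines satellite cells, was present in every library, at 857 and 1070 in DMSO, 1754 and 1730 under ET-3, and 1653 and 1599 under NT. Itga7, an integrin chain used to sort these cells, lay between 1851 and 2651, and Myod1, a transcription factor of activated MuSCs, between 1100 and 1539. Myog, a transcription factor of differentiating myoblasts, stood at 1157 and 1335 in DMSO and at 28 to 38 in the treated libraries. The libraries were thus myogenic by these markers, and the controls held more Myog RNA than the treated cells.

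A difference is given on the scale of log2(value + 1), and the test is limma's moderated test with Benjamini-Hochberg adjustment over the 13921 genes that passed the filter. A gene passed the test at an adjusted p of at most 0.05, and was called where it also differed by at least 2-fold. Of the 6 markers tested, 1 was called higher under ET-3 (Cd34), against 6.62% of all genes tested (14.9% were called lower and 21.5% in all). Under NT 1 was called, again Cd34, against 7.3% higher, 13.2% lower and 20.5% in all. Cd34 passed the filter on low values only through its treated libraries, so this count is given as description. Passing the test alone was common: 2 markers passed it as higher and 2 as lower under each ligand, where 30.6% of all genes were higher and 33.2% lower under ET-3 (63.7% in all), and 29.7% and 32.5% under NT (62.2% in all). In 2 of the 6 markers, all 4 treated libraries lay above both DMSO libraries (33.2% of all genes), and in another 2 they all lay below (36.4%). The counts of markers past the test alone were therefore close to the background, and they moved in opposite directions: the median log2 difference of the 6 was 0.12 under ET-3 and -0.04 under NT, against -0.01 over all genes in both. The ligand comparisons share the DMSO libraries, so they are not independent of each other.

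**Figure D1:**
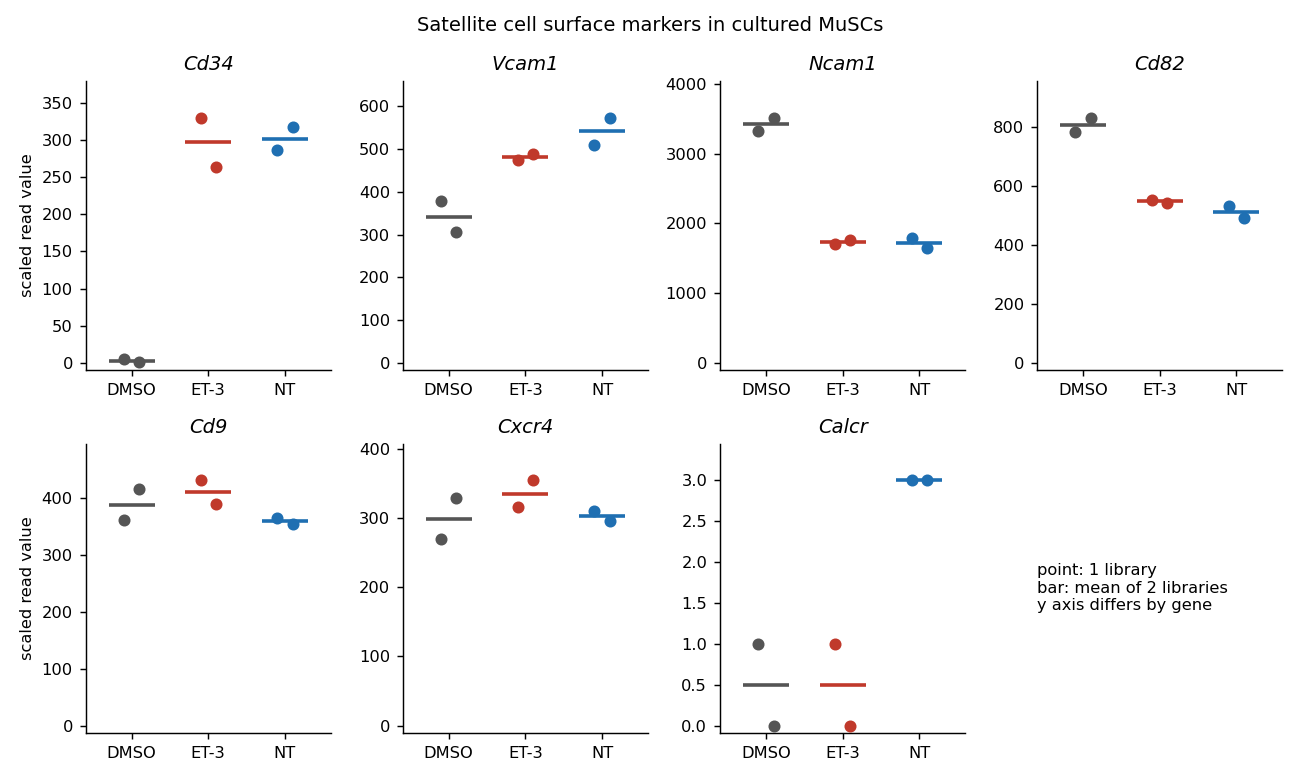
Values of the 7 surface markers in each library, on a separate linear axis for each gene, with 1 point per library and a bar at the mean of each group (DMSO, ET-3, NT; 2 libraries each). Cd34 goes from 5 and 1 in DMSO to 264 or more in every treated library, Ncam1 from 3326 and 3513 to between 1649 and 1785, and Calcr never exceeds 3.

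Cd34 showed the largest change of the markers under both ligands. Its values were 5 and 1 in DMSO, 330 and 264 under ET-3, and 286 and 318 under NT. All 4 treated libraries were far above both controls, and the ranges of the ET-3 and NT libraries overlapped. The DMSO mean of 3.0 lay under the filter of 5, which Cd34 passed only through its treated libraries. Its test and its call therefore describe these values and give no separate support. Through the library factors, the DMSO values correspond to about 6 reads in the sum of both libraries (95% exact Poisson interval 2.20 to 13.1, which covers counting error only), so the size of the fold depends on few reads. The log2 difference was 6.42 ± 0.40 (SE; 95% interval 5.53 to 7.30) under ET-3, an 85.5-fold change on the log2(value + 1) scale, with an adjusted p of 4.24e-07 in limma. With NT it was 6.45 (5.56 to 7.33), an 87.4-fold change, with an adjusted p of 4.32e-07. The rise was thus of the same order in the cells given either peptide.

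The call for Cd34 depends on how the treated pairs are counted: when the 2 libraries of a treated group were averaged into 1 sample, its log2 difference was 6.43 under ET-3 and 6.45 under NT, and limma's adjusted p was 0.0530 and 0.0559. Without the first DMSO library the differences were 7.21 and 7.24, and without the second 5.63 and 5.66. CD34 also marks endothelial cells, whose markers were therefore read beside it. Of 8 such genes, 5 had values in the table (Tie1, Emcn and Cldn5 had no row), and these 5 summed to 70 to 73 in DMSO, 60 to 76 under ET-3 and 69 to 75 under NT. None of the 5 was at 0 in all libraries, and Pecam1, the gene of CD31, was at 6 and 3 in DMSO, 10 and 7 under ET-3, and 15 and 9 under NT. Of the 4 tested, by the same test, Kdr was called higher and Vwf lower under ET-3, and Pecam1 and Kdr higher and Vwf lower under NT. Pecam1, with a DMSO mean of 4.5, passed the filter on low values only through its treated libraries, so its call is description. Vwf went from 38 and 52 in DMSO to 13 to 26 in the treated libraries and Kdr from 16 and 6 to 23 to 26. Tek and Selp, described below, are also made by endothelial cells and were not among the 8. Both were higher in every treated library than in either control. The part of endothelial genes in the Cd34 values was not tested. Of 8 blood cell markers, 5 had values (Ptprc, Adgre1 and Cd3e had no row). These summed to 39 to 41 in DMSO, 57 to 78 under ET-3 and 52 to 60 under NT, and did not move together. Cd14 went from 4 and 5 in DMSO to 24 to 34 in the treated libraries, and Cd68 from 15 and 14 to between 16 and 41. Itgam went from 14 and 7 to 0 in each treated library, Csf1r from 6 and 13 to 4 or 5, and Cd79a stayed at 2 or less. Their part in the Cd34 values was not tested either. In bulk RNA, more cells of a kind and more RNA per cell cannot be told apart, for this and every other gene.

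The nearest tested genes on either side of Cd34 on chromosome 1 did not share its change. They were taken by position, after the values were seen. Plxna2, a semaphorin receptor 122.0 kb to the lower side, was at 1160 and 1138 in DMSO, 391 and 435 under ET-3, and 504 and 477 under NT, and fell by 1.48 and 1.23 on the log2 scale. Cd46, which encodes a complement regulator 75.5 kb to the higher side, was at 12 and 10, 8 and 10, and 10 and 23 in the same order and did not pass the test. An overlapping gene, Gm16897, shares 148 exonic bases with Cd34 and had values of 3 or less in every library. The change of Cd34 therefore was not seen in the genes next to it.

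The sequence before the start of Cd34 is shown because it is the gene with the largest difference, and that before Cd9 because Cd9 did not pass the test. Both come from RefSeq (build GRCm38.p6), are read 5′ to 3′ on the strand of the gene and end just before its annotated start. The search was for 3 short motifs on both strands over the 250 bases before the RefSeq start. These were CANNTG, the E-box bound by MYOD and other basic helix-loop-helix factors, GGAATG, bound by TEAD factors, and TGANTCA, bound by AP-1; none of the 3 is part of another. Capitals mark the E-boxes.
Cd34, chr1:194938571-194938818, plus strand: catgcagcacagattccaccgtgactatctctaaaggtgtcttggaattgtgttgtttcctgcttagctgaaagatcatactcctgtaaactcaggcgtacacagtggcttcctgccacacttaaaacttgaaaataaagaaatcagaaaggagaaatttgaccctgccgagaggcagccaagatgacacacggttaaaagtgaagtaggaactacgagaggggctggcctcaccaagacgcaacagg
Cd9, chr6:125494792-125495010, minus strand: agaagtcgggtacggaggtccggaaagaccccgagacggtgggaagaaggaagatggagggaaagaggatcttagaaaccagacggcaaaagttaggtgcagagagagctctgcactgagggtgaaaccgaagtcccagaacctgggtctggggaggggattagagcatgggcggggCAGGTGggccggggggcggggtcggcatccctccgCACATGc
The Cd34 window (46.4% G and C) held none of the 3 motifs, and the Cd9 window (61.6%) held 3 E-boxes, of which the 2 shown lie before the annotated start of the gene. Among 32851 mouse promoters of the same length, 66.2% held an E-box, 12.6% GGAATG and 6.75% TGANTCA. The Cxcr4 window held none of the 3 either. For Cd82, with 4 listed starts, and Calcr, with 2, an E-box stood before 2 and 1 of the starts, and GGAATG before 2 of the Cd82 starts. Vcam1 and Ncam1 had no entry in the promoter table.

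Vcam1, the other marker that was higher, changed much less than Cd34. It was at 378 and 306 in DMSO, 475 and 488 under ET-3, and 510 and 573 under NT. All treated libraries lay above both controls, and the NT libraries lay above the ET-3 libraries. It rose by 0.50 ± 0.09 (SE) on the log2 scale under ET-3, or 1.41-fold, with an adjusted p of 0.000954 in limma, and by 0.67 under NT, or 1.59-fold, with an adjusted p of 0.000145. When each treated group was averaged into 1 sample, the differences stayed at 0.50 and 0.67, and the adjusted p was 0.163 and 0.114, so Vcam1 then no longer passed. VCAM1 is also found on stromal and endothelial cells. The 5 fibroadipogenic markers with values, of 8, summed to 148 to 165 in DMSO, 143 to 154 under ET-3 and 180 in each NT library (Lum, Dpt and Pi16 had no row). Members of that sum moved apart. Smoc2, called higher under both ligands, went from 12 and 18 in DMSO to 78 to 98 in the treated libraries, and Col15a1, called lower under both, from 80 and 82 to 1 or 0. Col15a1 passed the filter on low values only through its DMSO libraries, so its call is description. Ly6a, named after the values were seen, passed as higher under both ligands, with log2 differences of 0.83 and 0.98. The part of these genes in the Vcam1 values was not tested.

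Ncam1 had the highest values of the markers and fell by a factor near 2 with either ligand. It stood at 3326 and 3513 in DMSO, 1707 and 1764 under ET-3, and 1785 and 1649 under NT. All treated libraries were below both controls, and the ranges of the treated groups overlapped. The log2 difference was -0.98 ± 0.05 (SE; 95% interval -1.09 to -0.86) under ET-3 and -0.99 (-1.11 to -0.88) under NT, with limma's adjusted p at 1.26e-07 and 1.23e-07. This is 1.97-fold and 1.99-fold lower, so that Ncam1 stopped just short of the 2-fold threshold, and leaving out 1 library (the first DMSO library, the second ET-3 library or the first NT library) took it past. With the treated pairs averaged it still passed the test, at an adjusted p of 0.0263 and 0.0286.

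Reads of Ncam1 have an antisense neighbour to be kept in mind. Gm11149, which shares 417 exonic bases with Ncam1 on the other strand, was at 59 and 77 in DMSO, 8 and 10 under ET-3, and 12 and 16 under NT. Whether the reads were counted by strand could not be settled from the sources, so part of its values may be Ncam1 reads or the reverse. At its highest it had 77 against 3513 for Ncam1. NCAM1 is also found on Schwann cells and other non-myogenic cells, and markers of such cells were lower in the treated libraries. The 6 smooth muscle and pericyte markers summed to 1810 to 1877 in DMSO, 447 to 515 under ET-3 and 519 to 525 under NT. The 4 Schwann cell markers with values, of 6, summed to 1525 to 1586, 120 to 130 and 150 to 171 (Sox10 and Cdh19 had no row), most of which was Erbb3, a receptor kinase at 1458 and 1519 in DMSO. The part of these genes in the Ncam1 values was not tested.

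The tetraspanins Cd82 and Cd9 differed from each other. Cd82 was at 782 and 830 in DMSO, 550 and 543 under ET-3, and 532 and 491 under NT. All treated libraries lay below both controls. It fell by 0.56 ± 0.06 (SE) on the log2 scale under ET-3, to 1.47-fold lower, with an adjusted p of 1.25e-05 in limma, and by 0.66 under NT, to 1.58-fold lower, with an adjusted p of 4.30e-06. Cd82 also passed with the treated pairs averaged, with adjusted p at 0.0417 and 0.0394. Cd9 was at 360 and 415 in DMSO, 430 and 389 under ET-3, and 364 and 354 under NT, and the DMSO range overlapped that of each treated group. Its log2 difference was 0.08 (95% interval -0.09 to 0.26; adjusted p = 0.386 in limma) under ET-3 and -0.11 (-0.28 to 0.07; adjusted p = 0.260) under NT. The intervals leave room for small changes of Cd9 in either direction. Per exonic base, the ratio of Cd82 to Cd9 was 1.48 and 1.36 in the DMSO libraries and between 0.870 and 0.994 in the 4 treated libraries, below both controls, although the NT ranges of the genes themselves overlapped.

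Of the receptors, Cxcr4 was abundant and Calcr barely detected. Cxcr4 was at 270 and 328 in DMSO, 315 and 354 under ET-3, and 310 and 296 under NT, and the ranges overlapped between the controls and each treated group. The log2 difference was 0.17 (95% interval -0.05 to 0.38; adjusted p = 0.154 in limma) under ET-3 and 0.03 (-0.19 to 0.24; adjusted p = 0.830) under NT. The ET-3 value depended on the scaling: with each library scaled to its total it was 0.25, with an adjusted p of 0.0328. Calcr was at 1 and 0 in DMSO, 1 and 0 under ET-3, and 3 and 3 under NT. Through the library factors this is 1 read in all in DMSO, 1 under ET-3 and about 8 under NT (95% exact Poisson interval 3.45 to 15.8, counting error only). A value worth 3 reads was between 2.34 and 3.57, so Calcr was at or near the limit of detection in every group, and neither a test nor a fold is given for it.

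Compared directly with each other, the ET-3 and NT libraries showed no marker of the 6 past the test. The count of called markers was 0 in limma, against 0.079% of all genes, and 0 markers passed on adjusted p alone, against 2.69%. At an unadjusted p under 0.05 there was 1, Cd9, against 19.9% of all genes. The log2 difference of Cd9, NT minus ET-3, was -0.19 (95% interval -0.36 to -0.01; adjusted p = 0.218 in limma). For Cd34 the difference of NT from ET-3 was 0.03 with an interval of -0.85 to 0.92, which is wide. The interval for Vcam1 was -0.04 to 0.38 and that for Ncam1 -0.13 to 0.10. These intervals do not show that the ligands act alike.

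**Figure D2:**
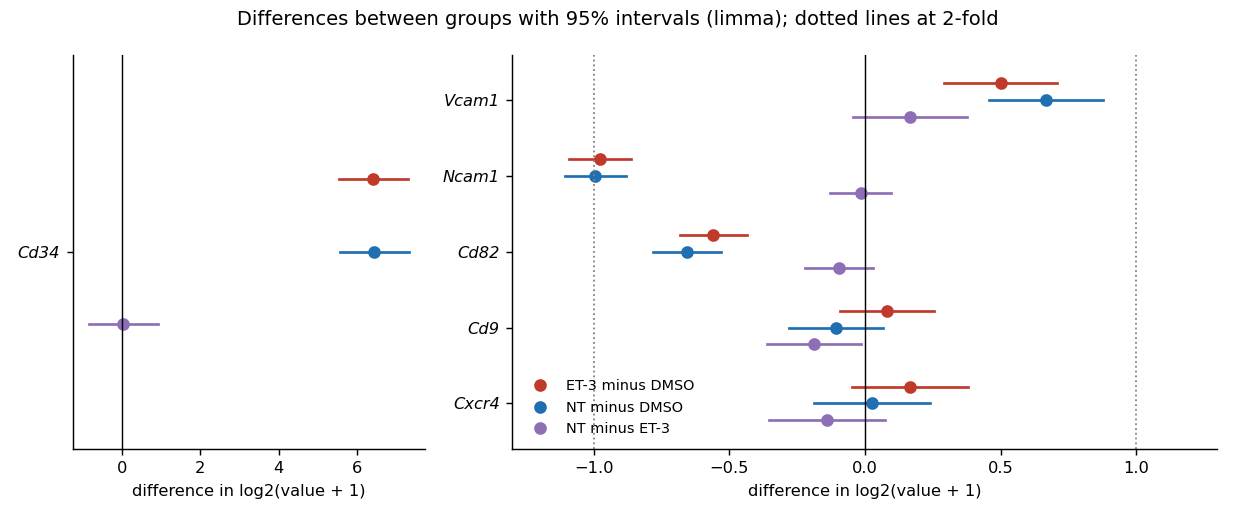
Differences in log2(value + 1) for the 6 markers tested, with Cd34 on its own axis, for ET-3 minus DMSO, NT minus DMSO and NT minus ET-3. Points are fitted differences, lines are limma's 95% intervals, and dotted lines in the right panel stand at 2-fold. Cd34 lies at 6.42 and 6.45 and Vcam1 at 0.50 and 0.67, Ncam1 at -0.98 and -0.99 and Cd82 at -0.56 and -0.66, while the intervals of Cxcr4 and Cd9 against DMSO cross 0.

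Levels of different genes were compared as values per kilobase of exon. In the DMSO cells Ncam1 led at 394.7 ± 15.3 (SD, n = 2), followed by Cd82 at 268.2 ± 11.3, Cd9 at 189.6 ± 19.0, Cxcr4 at 165.4 ± 22.7 and Vcam1 at 38.6 ± 5.74. Cd34 at 0.411 ± 0.388 and Calcr at 0.128 ± 0.181 came last. The ranges of the 2 libraries overlapped between Cd9 and Cxcr4 and between Cd34 and Calcr, and these neighbours in the order were not told apart. The other neighbours did not overlap.

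With ET-3 the order was Cd9 at 200.3 ± 14.2 (SD, n = 2), Ncam1 at 200.3 ± 4.65, Cxcr4 at 185.0 ± 15.2, Cd82 at 181.9 ± 1.65, Vcam1 at 54.3 ± 1.04, Cd34 at 40.7 ± 6.40 and Calcr at 0.128 ± 0.181. The leading 4 lay close together, and the ranges overlapped between Cd9 and Ncam1 and between Cxcr4 and Cd82. With NT, Ncam1 led at 198.2 ± 11.1, before Cd9 at 175.6 ± 3.46, Cd82 at 170.2 ± 9.65 and Cxcr4 at 167.6 ± 5.47, of which Cd9 overlapped with Cd82 and Cd82 with Cxcr4. Vcam1 followed at 61.0 ± 5.02 and Cd34 at 41.4 ± 3.10. Among the genes tested, the per-kilobase level of Cd34 stood at the 50.3 percentile under ET-3 and at 49.4 under NT; its place in DMSO is not given, since Cd34 passed the filter on low values through its treated libraries. Ncam1 moved from the 99.0 percentile to 92.9 and 94.0. Cxcr4 stayed between 89.3 and 91.4.

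RNA levels of the adhesion genes came closer to each other in the treated cells. The ratio of Ncam1 to Vcam1 per kilobase was 9.01 and 11.8 in the DMSO libraries, 3.68 and 3.70 under ET-3, and 3.58 and 2.95 under NT. That of Cd34 to Vcam1 was 0.0161 and 0.00398 in DMSO, where it rests on about 6 Cd34 reads, and between 0.658 and 0.845 in the treated libraries. Neither ratio overlapped between control and treated libraries.

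**Figure D3:**
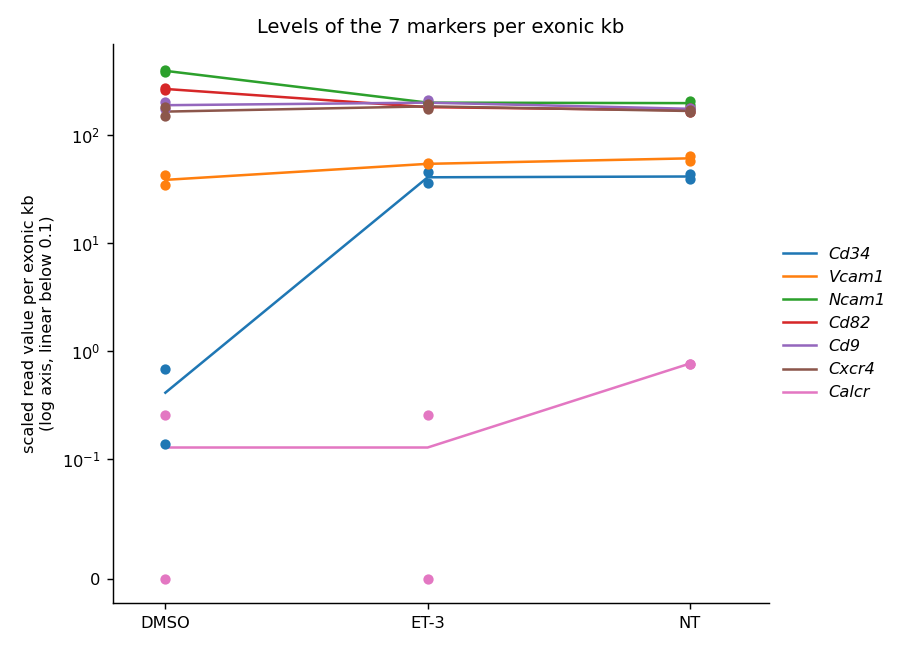
Levels of the 7 markers as value per kilobase of exon on a log axis that is linear below 0.1, with 1 point per library and the group means joined by lines for DMSO, ET-3 and NT. Cd34 climbs from 0.411 to 40.7 and 41.4, close under Vcam1, and Ncam1 falls from 394.7 to the level of Cd82, Cd9 and Cxcr4.

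The genes whose profiles over the 6 libraries were most like each marker were found by the root mean square distance of centred log2(value + 1) values, which describes these libraries and nothing of function. For Cd34 these were Nptx1 at a distance of 0.57, Itgb7 at 0.575 and Bmp6 at 0.684, and no gene lay within 0.1. Those of the other markers were much closer. Npat (0.044), Thada (0.046) and Gphn (0.047) were nearest to Vcam1, which had 209 genes within 0.1. Cdc42bpg (0.028), Tspan14 (0.034) and Map4 (0.037) were nearest to Ncam1, with 181 genes, and Ilkap (0.014), Ddr1 (0.018) and Wls (0.029) to Cd82, with 351. Cxcr4 was nearest to Itpa (0.041), Eif2s3x (0.049) and Ppp1r21 (0.051), with 360, and Cd9 to Wdr1 (0.014), Slirp (0.028) and Kdelr1 (0.031), with 959. Cd34 had the fewest genes within 0.1 of the 6 markers, and Cd9, whose profile is nearly flat, the most. The distance is not scaled for the size of a change, and the DMSO values of Cd34, 5 and 1, lie near the floor. Large changes and low values both widen it, so these counts do not rank how unusual the profiles are.

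Genes that work with the markers were taken as lists, described by counts of those that passed the test. As with Cd34, some passed the filter on low values only through their treated or only through their DMSO libraries, which is said where they are named. The calls of such genes, and the counts that hold them, are description. In the family of Cd34 and the selectins that bind it, 4 genes were tested, and 3 rose under each ligand, Sele among them. Over all genes tested, 30.6% passed as higher under ET-3 and 29.7% under NT. Podxl, which encodes the sialomucin podocalyxin, rose from 68 and 64 in DMSO to 259 and 292 under ET-3 and 274 and 305 under NT, a log2 difference of 2.04 and 2.11. Selp, the gene of P-selectin, which endothelial cells and platelets make, rose from 85 and 84 to 458 and 476 and to 424 and 440. Sele, which encodes E-selectin, was low, at 1 and 0 in DMSO, 6 and 2 under ET-3 and 13 and 8 under NT. Its DMSO mean of 0.5 lay under the filter on low values, which Sele passed only through its treated libraries. Podxl2, the gene of endoglycan, went the other way, with 27 and 31, 12 and 4, and 15 and 14, and fell by 1.89 on the log2 scale under ET-3 while its NT difference of -0.95 had an adjusted p of 0.0767 in limma. The median log2 difference of the 4, which include Sele, was 1.87 under ET-3 and 2.23 under NT, against -0.01 over all genes, and is description too.

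The integrin chains that form receptors for VCAM1 changed in opposite directions. Itga4, the alpha 4 chain, was at 541 and 487 in DMSO, 14 and 12 under ET-3, and 13 and 7 under NT. Itga9, the alpha 9 chain, was at 40 and 49, 4 and 5, and 7 and 4. Both fell, with log2 differences of -5.20 and -5.60 for Itga4 and of -3.05 and -2.84 for Itga9 under ET-3 and NT. Itgb7, the beta 7 chain that pairs with alpha 4, rose from 2 and 0 to 69 and 54 under ET-3 and 56 and 86 under NT. The DMSO mean of Itgb7 was 1.0, and it passed the filter on low values only through its treated libraries. Itgb1, the beta 1 chain, named after the values were seen, was high throughout, at 2070 and 2243 in DMSO, 2035 and 1910 under ET-3, and 1679 and 1600 under NT. Its log2 difference was -0.13 under ET-3 (adjusted p = 0.0585 in limma), and it fell by 0.39 under NT.

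In the CXCR4 system, 3 of 4 genes were tested. Ackr3, the scavenger receptor that removes CXCL12, rose from 325 and 306 in DMSO to 739 and 762 under ET-3 and 668 and 659 under NT, a log2 difference of 1.25 and 1.07, and was the only one called. Cxcl12 itself, also named after the values were seen, was at 1275 and 959, 1641 and 1651, and 1609 and 1535, and rose by 0.57 and 0.51, under the 2-fold threshold. All 3 tested genes rose under ET-3 and 2 of 3 under NT, against 30.6% and 29.7% of all genes tested. The ligand and the scavenger receptor of CXCR4 thus passed the test in the same libraries in which Cxcr4 did not.

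Of 8 tested genes for ligands, accessory proteins and collagen V partners of CALCR, 2 were called higher and 3 lower under each ligand. Over all genes tested, 6.62% were called higher and 14.9% lower under ET-3, and 7.3% and 13.2% under NT. Calca, the gene of calcitonin and of calcitonin gene-related peptide, was low, at 5 and 1 in DMSO, 8 and 13 under ET-3, and 16 and 17 under NT. Ramp3, which encodes a receptor activity-modifying protein, was at 18 and 13, 1 and 3, and 2 and 2, and passed the filter only through its DMSO libraries. The other 2 genes of such proteins, named after the values were seen, did not fall with it. Ramp2 was at 9 and 13, 42 and 38, and 44 and 39, and was called higher under both ligands. Ramp1, at 20 and 17, 19 and 21, and 21 and 15, did not pass the test. Collagen V, whose fragments bind CALCR, has several chains, which did not all change alike. Col5a1 fell from 1758 and 1795 to 450 and 412 under ET-3 and 597 and 512 under NT, and Col5a3 from 929 and 945 to 98 and 111 and to 163 and 133. The log2 difference of Col5a2, named after the values were seen, was -0.05 under ET-3 (adjusted p = 0.297 in limma), and it fell by 0.19 under NT.

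Among 5 tested relatives of Ncam1 and enzymes that add polysialic acid to it, 1 was called, as lower under both ligands. Over all genes tested, 14.9% were called lower under ET-3 and 13.2% under NT. St8sia4, a polysialyltransferase, was at 25 and 19 in DMSO, 1 and 1 under ET-3, and 0 and 2 under NT, and fell. It passed the filter on low values only through its DMSO libraries. St8sia2, the other polysialyltransferase, was named after the values were seen. It was at 1243 and 1343 in DMSO, 796 and 911 under ET-3, and 921 and 851 under NT, and fell by 0.60 and 0.54 on the log2 scale. In all, 2 of the 5 passed as higher and 3 as lower under ET-3, and 2 and 2 under NT. The shares over all genes tested were 30.6% and 33.2% under ET-3, and 29.7% and 32.5% under NT. Both enzymes and Ncam1 were lower in every treated library than in either control.

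Of 12 tested tetraspanins and tetraspanin partners, 1 was called, as lower under both ligands, against 14.9% of all genes under ET-3 and 13.2% under NT. Tspan33 fell from 591 and 596 in DMSO to 68 and 66 under ET-3 and 72 and 77 under NT, a log2 difference of -3.13 and -2.98. With ET-3, 3 of the 12 passed as higher and 6 as lower, and under NT 2 and 7. The shares over all genes tested were 30.6% and 33.2% with ET-3, and 29.7% and 32.5% under NT. The median log2 difference was -0.16 under ET-3 and -0.26 under NT.

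Other surface proteins known from satellite cells made up a list of 20 genes, all tested. Under ET-3, 3 were called higher and 6 lower, against 6.62% and 14.9% of all genes tested, and under NT 3 and 5, against 7.3% and 13.2%. Tek, the gene of the angiopoietin receptor TIE2, which endothelial cells also carry, rose from 2 and 1 in DMSO to 68 and 59 under ET-3 and 42 and 70 under NT, a log2 difference of 4.72 and 4.50. The DMSO mean of Tek was 1.5, and it passed the filter on low values only through its treated libraries, so its call is description. Cdh15, which encodes M-cadherin, fell from 1547 and 1746 to 483 and 462 under ET-3 and 496 and 436 under NT. Notch3 fell from 1397 and 1773 to 305 and 284 and to 409 and 353. Bcam, which encodes a laminin receptor, was at 147 and 146 in DMSO, 33 and 39 under ET-3, and 46 and 48 under NT, and fell as well. The median log2 difference of the 20 was -0.21 under ET-3 and -0.34 under NT.

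**Figure D4:**
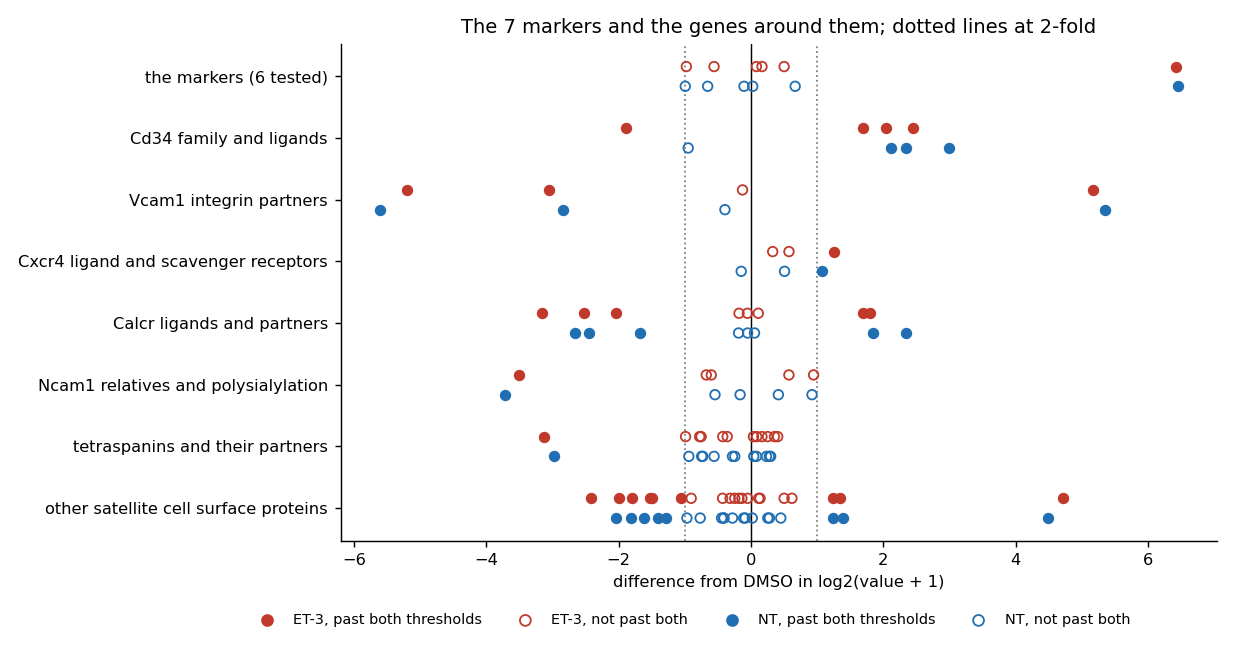
Differences from DMSO in log2(value + 1) for the tested genes of each list, with 1 point per gene, ET-3 and NT on separate lines, and filled points past both the 2-fold and the adjusted p threshold. Cd34 stands alone at 6.42 and 6.45 among the markers, and the integrin partners of VCAM1 run from -5.60 to 5.35.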

How the data were processed

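RNA-seq of cultured MuSCs was analysed in 6 libraries, with 2 each for DMSO, ET-3 and NT, grouped by their labels. Per the submitters' processing notes, reads were handled with Trimmomatic 0.38, STAR 2.7.7a, featureCounts 1.6.5 and DESeq2 1.30.0 on mm10. The paper's methods name another trimming tool, other versions and a stranded kit, and the labels the SMART-Seq HT kit. The methods state that reads on several genes or several places were left out. The values of the table deposited by the authors were taken as a read signal: whole numbers that look like counts times a factor of the library, rounded, so no count model was used. The factors were fitted here to the whole numbers that occur.

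Genes with a mean of at least 5 were tested (13921 of 18943, with 5022 removed) with limma 3.58.1 (lmFit, contrasts, eBayes with trend) on log2(value + 1) in R 4.3.3. All 6 libraries entered 1 fit with no covariate, with thresholds of 2-fold and 0.05 as in the study. The fit was tested on simulated data. GENCODE lengths and positions were matched by Ensembl identifier for 18920 genes, and promoters came from RefSeq by symbol for 5 of the 7 markers. Depth is given with the results. Of other genes, up to 4 per list are named, those called under both ligands with the largest mean change or, failing these, under 1. Pax7, Itga7, Myod1 and Myog are named as checks, as are the 3 genes nearest in profile to each marker. Genes outside this rule, overlapping and neighbouring genes among them, were named after the values were seen. The markers and lists were chosen with earlier results of these data known. Alternatives covered the pseudocount, the filter, the scaling, voom weights, the replicate block, the groups fitted, the fold threshold, averaging of treated pairs and each library left out.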

Additional observations from a re-analysis of the deposited data

How the results depend on the processing

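Of 270 comparisons of a result with an alternative setting, 253 kept their direction and their side of the threshold. The number of markers called fell from 1 to 0 under each ligand with the treated pairs averaged, rose to 4 with no fold threshold, and ranged from 1 to 2 when 1 library was left out, where the second is Ncam1. With the treated pairs averaged, Cd34 (6.43 and 6.45 on the log2 scale) lost its call, and Vcam1 (0.50 and 0.67), not called before, no longer passed the test. That setting leaves 1 sample in each treated group, so the spread is measured in the DMSO pair alone. Fewer of all genes tested passed or were called there too, so the loss is not particular to these markers. Cxcr4 passed the test with ET-3 under library-total scaling and voom weights (0.25 in both), under the 2-fold threshold and so without a call. NT against ET-3 gave 0 called markers throughout, and its count over all genes was 11 in the fit reported here and 0 in 10 of the alternatives. Scaling to the library total moved the median of all genes from -0.01 to 0.08 with ET-3 and to 0.10 with NT, and differences of this size change sign with it: Cd9 under NT became 0.0064 there and 0.0057 with voom weights. Other signs turned in small differences. With 1 library left out, Cd9 under ET-3 ran from -0.021 (without DMSO replicate 1) to 0.18, and Cxcr4 under NT from -0.11 to 0.17 (below 0 without DMSO replicate 1 or NT replicate 1). In NT against ET-3, Cd34 then ran from -0.13 to 0.19 (below 0 without ET-3 or NT replicate 2) and Ncam1 from -0.0735 to 0.041 (above 0 without ET-3 or NT replicate 2), and Ncam1 was 0.0075 under library-total scaling and 0.0079 with voom weights. The cause was not tested.

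The replicate block gave 1, 1 and 0 called markers for ET-3, NT and NT against ET-3 and changed no call. The numbers do not pair the libraries: deviations of libraries with the same number correlated at -0.008, -0.07 and -0.022 across genes. Depth limits Calcr, at 3 or less in every library, and the fold of Cd34, which rests on about 6 control reads.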
